A study of Homo sapiens with 4 samples.

Results

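The RCAN genes, the calcineurin subunit genes and the genes of the NFAT factors that calcineurin acts on were followed in HepG2 cells after knockdown of PATZ1, a zinc finger transcription factor. The genes were chosen by their symbols in the platform annotation, which gave 10 of 20045 named genes and 20 of 47323 probes. They are RCAN1, RCAN2 and RCAN3, the subunit genes PPP3CA, PPP3CB, PPP3CC and PPP3R1, and the factors NFATC1, NFATC3 and NFATC4. The list was drawn up because the RCAN3 signal appeared only on the siPATZ1 arrays, so the detection of these genes and their difference between siPATZ1 and siCTRL are given as a description. Fitted counts of these probes appear only beside those over all probes or, under other processing, over all genes, and they support nothing.

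Calcineurin is a phosphatase that is switched on by calcium and calmodulin. It is made of a catalytic A subunit, encoded by PPP3CA, PPP3CB or PPP3CC, and a regulatory B subunit, encoded by PPP3R1 in most tissues, and it is the target of the immunosuppressants cyclosporin and tacrolimus. Active calcineurin removes phosphates from NFAT factors, which then enter the nucleus, while the RCAN proteins bind calcineurin and restrain it. RCAN1 is also a transcriptional target of NFAT, through a promoter inside the gene, and so closes a feedback loop.

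HepG2 is a human liver cancer line, and its RNA was hybridized to Illumina HumanHT-12 v4 BeadChips. The siPATZ1 group, with an siRNA directed at PATZ1, and the siCTRL group, with a scrambled siRNA, had 2 arrays each. The cells were reverse transfected with 60 pmol of siRNA and collected at 48 h. Both groups were thus transfected, no untransfected cells were measured, and separate cultures are not stated for the 2 arrays within a group, so every SE and p-value rests on a spread that could be that of the technique alone.

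A signal was called detected at a detection p-value under 0.01, which ranks the probe against the negative control beads of its array. On the siPATZ1 arrays 15980 and 15236 probes were detected, against 14222 and 14384 on the siCTRL arrays. The 3 PATZ1 probes were detected on no array (lowest detection p-value 0.0649), so the arrays do not check the knockdown. Of 11 hepatocyte markers with a probe, 4 were detected on all arrays (ALB, KRT8, KRT18 and CPS1) and 7 on none, among them the alpha-fetoprotein gene AFP, the apolipoprotein gene APOA1 and the transthyretin gene TTR. ALB was dim, with signals of 157 to 202, where the lowest signal detected on an array was 133 to 147. Of 5 mesenchymal markers, VIM was detected on all arrays (5190 to 7490) and 3 were detected on none. The labelled cell type therefore rests on few of its defining markers here. None of 7 leukocyte markers, those of cells in which NFAT is best known, was detected.

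The bases before an annotated start of RCAN3, NFATC1 and RCAN1 are shown first, because these genes carry the values below. They are RefSeq sequence of GRCh38.p14, 5′ to 3′ on the gene's strand, and end at the base before the start. The first RCAN3 start with a window is base 24502836, inside the gene's span, which begins at base 24502344. The bases before 24502344 were not searched. RefSeq windows were searched for 7 of the 10 genes, at 19 starts. No window was searched for PPP3CA, PPP3CB and PPP3CC, so the motif counts below leave these genes out and say nothing of their starts. Capitals in NFATC1 mark GGGGAGGTG, which the study names as a putative PATZ1 site in another promoter. Capitals in RCAN3 and RCAN1 mark GGAAA, the core of an NFAT site, or its reverse complement TTTCC. The windows shown and the motifs were chosen after the array values were known.
RCAN3, first start, chr1:24502586-24502835, plus strand: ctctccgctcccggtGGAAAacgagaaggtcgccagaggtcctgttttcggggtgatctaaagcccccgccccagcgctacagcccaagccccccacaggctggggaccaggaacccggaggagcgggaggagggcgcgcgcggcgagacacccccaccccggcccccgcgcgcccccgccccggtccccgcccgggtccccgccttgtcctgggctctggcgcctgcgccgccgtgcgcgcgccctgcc
NFATC1, first start, chr18:79395680-79395929, plus strand: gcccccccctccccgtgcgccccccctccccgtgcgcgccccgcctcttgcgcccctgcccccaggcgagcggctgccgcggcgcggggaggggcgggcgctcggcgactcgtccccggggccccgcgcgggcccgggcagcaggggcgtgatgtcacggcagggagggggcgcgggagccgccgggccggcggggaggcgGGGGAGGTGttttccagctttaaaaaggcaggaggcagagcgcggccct
RCAN1, internal start, chr21:34526823-34527072, minus strand: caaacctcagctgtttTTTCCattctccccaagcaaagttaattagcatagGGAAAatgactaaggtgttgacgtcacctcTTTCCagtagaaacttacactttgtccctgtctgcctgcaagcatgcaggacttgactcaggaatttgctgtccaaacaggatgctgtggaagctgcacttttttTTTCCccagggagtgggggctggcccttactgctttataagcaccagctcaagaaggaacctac

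Both strands of each window of 250 bases were searched. GGGGAGGTG was found in 2 of the 19 windows, at NFATC1 (bases 49 to 41 before the start) and at 1 of the 3 NFATC4 starts (bases 47 to 39), and 1.43% of all 35116 RefSeq windows held it. None of the 3 RCAN3 windows and none of the 6 RCAN1 windows held these letters. GGGAGGG, a G-rich run searched beside it, was found in 8 of the 19 windows and in 24.7% of all windows. It had 4 matches at the first NFATC1 start and none in the RCAN3 windows. The NFATC4 windows before bases 24368998 and 24369082 overlap, so matches in their shared bases were counted in both. G and C made up 81.2% of the first NFATC1 window and 73.2%, 78.4% and 76% of the NFATC4 windows. The first RCAN3 window, with no GGGAGGG, had 76.4%, and the median of all windows was 58%. What part base content had in the matches was not tested. GGAAA was found in 8 of the 19 windows and in 55.6% of all. The internal RCAN1 window shown held 4 matches, at bases 234, 199, 169 and 64 before the start. Of the other 5 RCAN1 windows, all but the outermost also belong to starts inside the gene's span, and none of the 5 held a match. The first RCAN3 window held 1, at base 235. Matches of different motifs can overlap, as in PPP3R1. A match is a description of the letters and not of a bound site.

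Of the 20 probes, 7 were detected on all 4 arrays and 11 on none. Probes detected on both siPATZ1 arrays, or on both siCTRL arrays, were kept for comparison, and 9 probes of 8 genes were kept (45%). RCAN2 and NFATC4 were detected on no array. On the 11 probes not detected anywhere, signals lay between 71.3 and 136.9 on the siPATZ1 arrays and between 70.1 and 141.7 on the siCTRL arrays. The median of all undetected probes was 83.3 and 88.6 on the siPATZ1 arrays and 82.8 and 83.4 on the siCTRL arrays, and the upper end of both ranges was the NFATC3 probe ILMN_1800976, close to the detection limit. All 4 subunit genes, RCAN1, NFATC1 and NFATC3 each had at least 1 probe detected in both groups.

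**Figure D1:**
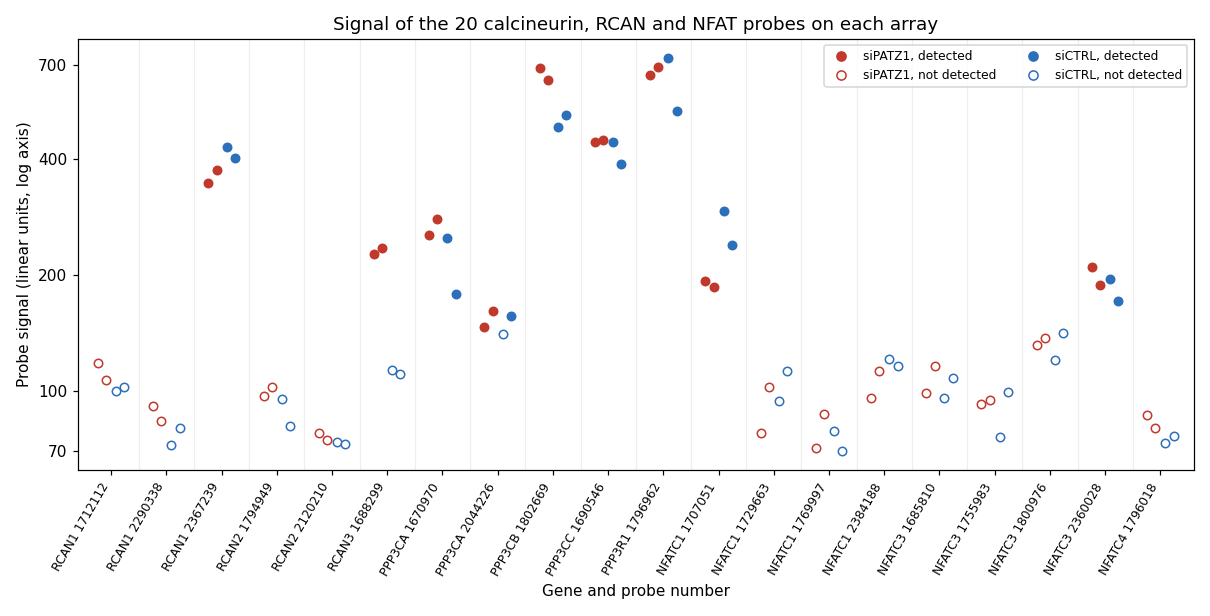
Probe signal before normalization (linear units on a log axis) for the 20 probes on the 2 siPATZ1 and 2 siCTRL arrays, each point 1 array and filled where the detection p-value was under 0.01. RCAN3 is filled on both siPATZ1 arrays (226.1 and 234.4) and open on both siCTRL arrays (113.3 and 110.7), and RCAN2 and NFATC4 are open throughout.

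RCAN3 (chromosome 1, bases 24502344 to 24541040, GRCh38.p14) encodes an RCAN family member and is read by a single probe. Its signal was 226.1 and 234.4 on the siPATZ1 arrays and 113.3 and 110.7 on the siCTRL arrays. The detection p-value was 0 on both siPATZ1 arrays, against 0.0429 and 0.0506 on the siCTRL arrays. The groups did not overlap, and each pair of arrays lay close together. After background correction and quantile normalization the log2 values were 7.25 and 7.26 in siPATZ1 cells and 5.68 and 5.61 in siCTRL cells, a difference of 1.61 (SE 0.12). Because RCAN3 was not detected in siCTRL cells, its level there is only a bound. Set against the lowest signal detected on each siCTRL array, RCAN3 was at least 1.87-fold higher in siPATZ1 cells, and the fold of the measured values was 3.06.

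The size of the RCAN3 difference depended on how background was treated. It was 0.93 with no background correction, and also 0.93 on the deposited scaled signals, while it lay between 1.59 and 1.66 when any 1 array was left out. RCAN3 was 1 of 741 probes detected on both siPATZ1 arrays and on no siCTRL array, which is 1.57% of all 47323 probes, and 91 probes showed the reverse. More probes were detected on the siPATZ1 arrays as a whole, and what part this had in the RCAN3 pattern was not tested. With a detection limit of 0.05 instead, RCAN3 was detected on 3 arrays, and the pattern was then seen for 457 probes, with the reverse for 320. In RNA of whole cultures a change in the share of cells that express a gene and a change in RNA per cell cannot be told apart.

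RCAN1 (chromosome 21, bases 34516442 to 34615113), which restrains calcineurin and is induced by it, had 3 probes annotated to different RefSeq transcripts. Which of the starts above each probe reads was not checked. Only ILMN_2367239 was detected, and its signal was 346.4 and 373 on the siPATZ1 arrays against 428.2 and 402.5 on the siCTRL arrays. The siPATZ1 arrays were both below the siCTRL arrays. The log2 values were 8.05 and 8.12 in siPATZ1 cells and 8.59 and 8.52 in siCTRL cells, a difference of -0.46 (SE 0.12), which is 1.38-fold lower and just short of the 1.4-fold threshold used by the study. RCAN1 and RCAN3 thus lay on opposite sides of 0. The difference stayed between -0.50 and -0.32 over 8 alternatives, which were 4 other treatments of the signal and leaving out each of the 4 arrays. The undetected probes, ILMN_1712112 and ILMN_2290338, had signals of 118.3 and 106.7 and of 91.4 and 83.4 on the siPATZ1 arrays, against 100.1 and 102.4 and 72.3 and 80.2 on the siCTRL arrays. Neither was above background in any array, so they give no direction.

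RCAN2, the RCAN gene best known from brain and muscle, was read by a pair of probes and was near background on both. ILMN_1794949 had 97.1 and 102.4 on the siPATZ1 arrays, against 95.1 and 81.2 on the siCTRL arrays, and ILMN_2120210 had 78 and 74.8 against 73.8 and 73. The RCAN family was therefore represented by RCAN1 alone among the signals detected in siCTRL cells, and by RCAN1 and RCAN3 in siPATZ1 cells.

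Of the catalytic subunits, PPP3CB (chromosome 10, bases 73436433 to 73496024) was the only one whose groups did not overlap before and after normalization. Its signal was 686.3 and 640.8 on the siPATZ1 arrays and 482 and 520 on the siCTRL arrays. After normalization the log2 values were closer, 9.20 and 9.04 in siPATZ1 cells against 8.79 and 8.95 in siCTRL cells, a difference of 0.25 (SE 0.14). It stayed above 0 in 8 alternatives, between 0.17 and 0.40. PPP3CA, a catalytic subunit abundant in brain, had probes that disagreed. ILMN_1670970 had 253.1 and 278.8 on the siPATZ1 arrays against 248.8 and 178.3 on the siCTRL arrays, with a log2 difference of 0.27 (SE 0.22), and the siCTRL arrays lay far apart. Without siCTRL 2 the difference was -0.07, and without siCTRL 1 it was 0.62. The dimmer ILMN_2044226 had 146.4 and 161.5 against 140.8 and 156.5, a difference of -0.11 (SE 0.15), and was just inside the detection limit, with detection p-values of 0.00779 and 0.00779 on the siPATZ1 arrays and 0.0104 and 0.00519 on the siCTRL arrays.

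PPP3CC, the catalytic subunit known from testis, had signals of 442.9 and 446.6 on the siPATZ1 arrays and 440.5 and 386.6 on the siCTRL arrays, a log2 difference of -0.08 (SE 0.13). PPP3R1, the regulatory subunit that binds calcium, had 659.2 and 690 on the siPATZ1 arrays and 726.9 and 530.2 on the siCTRL arrays, a difference of -0.07 (SE 0.18). For both, the arrays of the groups overlapped on the log2 scale. The PPP3R1 siCTRL arrays were the highest and the lowest of the 4, so that leaving either out moved the difference to -0.32 (without siCTRL 2) or 0.17 (without siCTRL 1). The transcripts of an A and a B subunit were thus detected on every array in both groups.

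**Figure D2:**
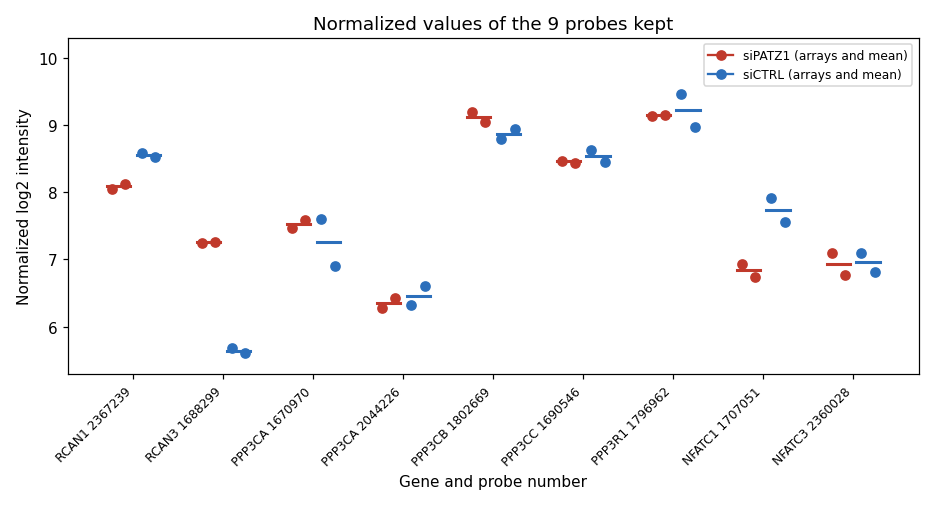
Normalized log2 intensity of the 9 probes kept, each point 1 array and each bar the mean of 2 arrays, siPATZ1 left of siCTRL. RCAN3 and PPP3CB lie above siCTRL and RCAN1 and NFATC1 below it, and the arrays of the other 5 probes overlap.

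NFATC1 (chromosome 18, bases 79395930 to 79529323), a factor best known from lymphocytes, heart valves and osteoclasts, had the lowest difference of these 9 probes. The signal of ILMN_1707051 was 192.8 and 186 on the siPATZ1 arrays and 292.8 and 239.4 on the siCTRL arrays, and it was detected on all 4. Both siPATZ1 arrays were below both siCTRL arrays. The log2 values were 6.93 and 6.74 in siPATZ1 cells and 7.92 and 7.56 in siCTRL cells, a difference of -0.90 (SE 0.16), or 1.87-fold lower. The difference was -0.60 on the deposited scaled signals and -1.09 without siCTRL 2. The other 3 NFATC1 probes, annotated to other transcripts, were detected on no array, so the lower level was measured on 1 probe of 4. Of these, ILMN_2384188 had 96 and 112.7 on the siPATZ1 arrays against 121.2 and 116 on the siCTRL arrays, and ILMN_1729663 and ILMN_1769997 had groups that overlapped. As none of these 3 was above background on any array, they give no direction.

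NFATC3, a factor expressed in many tissues, had 4 probes, of which ILMN_2360028 was detected on all arrays. Its signal was 209.2 and 188.2 on the siPATZ1 arrays and 195.3 and 170.6 on the siCTRL arrays, a log2 difference of -0.03 (SE 0.16). The groups overlapped. ILMN_1800976 was just outside the detection limit, with detection p-values of 0.0117 and 0.0117 on the siPATZ1 arrays and 0.0351 and 0.0104 on the siCTRL arrays, and signals of 131.5 and 136.9 against 120.6 and 141.7. NFATC4 had 86.7 and 80 on the siPATZ1 arrays against 73.3 and 76.4 on the siCTRL arrays, with no detection p-value under 0.31.

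Among the 9 probes kept, 2 had both siPATZ1 arrays above both siCTRL arrays and 2 had them below, where 29.9% and 29% of all probes kept did so. At an adjusted p-value under 0.05 (limma, Benjamini-Hochberg) 1 was higher, RCAN3, and 1 lower, NFATC1, against 6.74% and 5.67% of all probes kept. As the genes were chosen on this contrast, nothing is read from these counts. With any 1 array left out, the difference was 1.59 to 1.66 for RCAN3 and -1.09 to -0.72 for NFATC1. The median difference of the 9 probes was -0.07, against 0 over all probes kept, and the median size of the difference was 0.25 against 0.21. RCAN1, RCAN3, PPP3CB and NFATC1 kept their sign in 8 alternatives, and the other 5 probes took both signs.

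**Figure D3:**
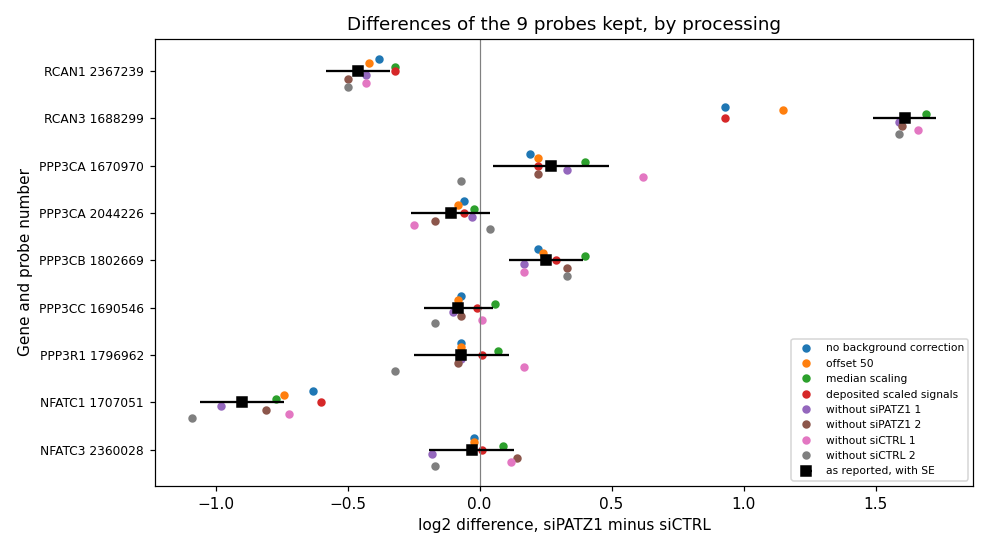
Log2 difference, siPATZ1 minus siCTRL, of the 9 probes kept, as reported (squares, with SE) and under 8 alternatives (points). RCAN3 has 0.93 to 1.69 and NFATC1 -1.09 to -0.60, while PPP3CA, PPP3CC, PPP3R1 and NFATC3 lie on both sides of 0.

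The 3 genes whose centred log2 values were closest to those of RCAN3 over the 4 arrays were TRAK1, KIF1C and ZW10. The Euclidean distance was 0.10 for TRAK1, which encodes an adaptor of mitochondrial transport, 0.10 for KIF1C, a kinesin, and 0.12 for ZW10, a kinetochore protein. TRAK1 had a log2 difference of 1.62 on this probe, but 0.04 and 0.54 on its other probes, and ZW10 had 1.72. KIF1C, like RCAN3, was not detected on the siCTRL arrays, with signals of 236.7 and 238.7 in siPATZ1 cells against 118.3 and 117.1 in siCTRL cells, and was at least 1.96-fold higher in siPATZ1 cells. The genes closest to RCAN1 were JMJD8, SNORD16 and HAAO, at distances of 0.02, 0.02 and 0.03. The log2 difference was -0.47 for JMJD8 and -0.48 for SNORD16, while HAAO was not detected on the siPATZ1 arrays and was at least 1.28-fold lower there. With 4 arrays many genes lie close to any given one.

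The nearest genes with a probe on either side of RCAN3 were then read. GRHL3, STPG1 and NIPAL3 lie before it on chromosome 1 and NCMAP, SRRM1 and CLIC4 after it. Of these, 4 were tested, and none passed (lowest adjusted p = 0.209, limma over 9435 genes, with 0 under an unadjusted p of 0.05). Over all 9435 genes, 7.76% rose and 6.94% fell at an adjusted p under 0.05, and 2933 were under an unadjusted p of 0.05. With 4 genes, no share can be set against these. STPG1 had a log2 difference of -0.26 (SE 0.13), NIPAL3 of -0.31 (SE 0.15), SRRM1, a splicing coactivator, of -0.22 (SE 0.12), and CLIC4, an intracellular chloride channel protein, of -0.19 (SE 0.20). These are the values of the brightest probe of each gene. CLIC4 had other probes at -0.12 (SE 0.12) and 0.38 (SE 0.16), so its probes lay on both sides of 0. GRHL3 was detected on no array and NCMAP on 1 array of each group. RCAN3AS, the antisense transcript that starts beside RCAN3, was not analysed here.

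**Figure D4:**
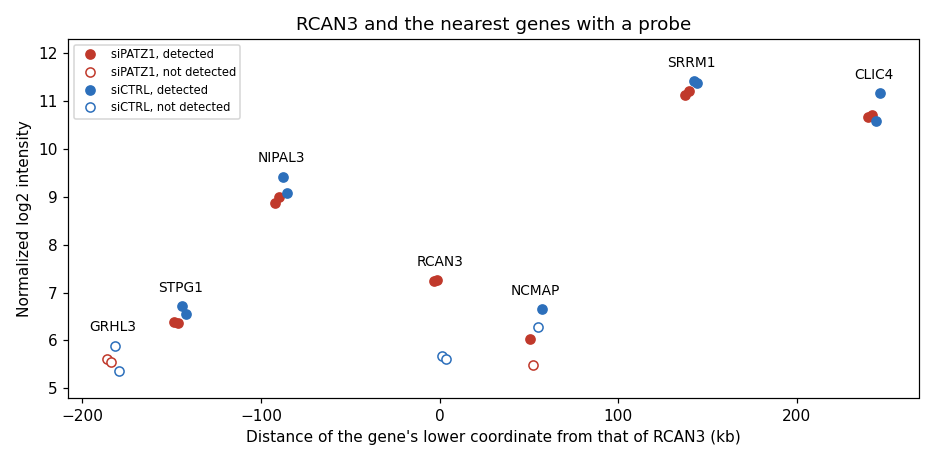
Normalized log2 intensity of RCAN3 and its nearest genes with a probe, placed by distance in kb along chromosome 1, each point 1 array (siPATZ1 left of siCTRL, filled where detected). RCAN3 has 7.25 and 7.26 on the siPATZ1 arrays and 5.68 and 5.61 on the siCTRL arrays, and none of the 4 neighbours tested passed the test. Of all genes tested, 7.76% rose and 6.94% fell.

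Around the 10 genes, 86 further genes of the pathway were listed by role. A probe was named for 79, and 42 were detected and tested by the fit over all 9435 genes, each by its brightest probe. Of the 42, 4 rose and 4 fell in siPATZ1 cells at an adjusted p under 0.05 (9.52% each way), where 7.76% and 6.94% of all genes tested rose and fell. The median log2 difference was 0.05, against 0 over all genes. Without siPATZ1 1, and likewise without siPATZ1 2, 1 rose and 1 fell (GSK3B and MAPK8), and without siCTRL 1 the counts were 2 and 6. Under median scaling 8 rose and 2 fell, and over all genes the split of calls moved to 77.8% higher and 22.2% lower, against 52.8% and 47.2%.

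The kinases that return phosphate to NFAT held the clearest differences. GSK3B, which phosphorylates NFAT for export from the nucleus, had 965.5 and 1097.8 on the siPATZ1 arrays and 483.7 and 415.8 on the siCTRL arrays, a log2 difference of 1.12 (SE 0.14, adjusted p = 0.00411 by limma). MAPK8, which encodes the stress kinase JNK1, had 159 and 156.3 against 249.4 and 252.8, a difference of -1.23 (SE 0.13, adjusted p = 0.00268 by limma). It was near the detection limit on the siPATZ1 arrays (detection p-values 0.0039 and 0.00779). Its difference was -0.81 with no background correction and -0.79 on the deposited scaled signals, where GSK3B had 1.01 and 1.08. The groups were well apart for both genes, and each passed in 15 of 16 alternatives, the exception being the methods' t-test after Benjamini-Hochberg adjustment. NFAT5, the NFAT relative that answers to salt and does not depend on calcineurin, rose by 0.59 (SE 0.13, adjusted p = 0.0279 by limma). It was detected on both siPATZ1 arrays (144.5 and 158.7) and on neither siCTRL array (111 and 119.1), and its bound gave no fold above 1. The call was lost with no background correction (0.30, adjusted p = 0.0726 by limma) and on the deposited scaled signals (0.28, adjusted p = 0.0917 by limma), and in 7 of 15 alternatives in all. Of the 12 genes tested in this list, 9 did not pass, among them the casein kinase genes CSNK1A1, CSNK1D and CSNK1E (0.21, -0.24 and 0.22) and DYRK1A (-0.16). A dimmer CSNK1A1 probe had 0.55 (SE 0.13). NFATC2, the NFAT factor named for T cells, was detected on no array.

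Of the genes for proteins that bind calmodulin or calcineurin, 4 were tested and PPIA fell. PPIA encodes cyclophilin A, through which cyclosporin reaches calcineurin, and its signal was 249.7 and 222 on the siPATZ1 arrays against 267.8 and 302.5 on the siCTRL arrays, a difference of -0.58 (SE 0.15, adjusted p = 0.0444 by limma). The call was lost in 10 of 16 alternatives, among them median scaling (adjusted p = 0.0816 by limma) and the replicate number as a block (adjusted p = 0.0699 by limma). PPIA has many near-identical pseudogenes, and what else the probe could read was not checked. FKBP1A, through which tacrolimus acts, had -0.21 (SE 0.14) on its brightest probe and -0.10 to 0.38 on the others, and the calcineurin inhibitors CABIN1 and CHP1 had 0.10 (SE 0.14) and 0.17 (SE 0.12), and none of the 3 passed.

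Of the genes of calcium entry and release, 12 were tested and ATP2A2 alone passed. ATP2A2 encodes SERCA2, the pump that returns calcium to the endoplasmic reticulum. Its brightest probe had 1494.5 and 1513 on the siPATZ1 arrays against 1034.1 and 881.3 on the siCTRL arrays, a difference of 0.49 (SE 0.13, adjusted p = 0.0431 by limma). Its other probes had 0.29 (SE 0.12) and -0.57 (SE 0.14), so the probes went in opposite directions, and the mean of the 3 probes gave 0.07 (adjusted p = 0.716 by limma). In the fit over all probes kept, the falling probe passed (adjusted p = 0.0431 by limma). The brightest probe did not pass in that fit (adjusted p = 0.0541 by limma), so the gene has no agreed direction. The call was lost in 9 of 16 alternatives. STIM1, the calcium sensor of store-operated entry, had -0.34 (SE 0.14), STIM2 had 0.02 (SE 0.12) and the phospholipase gene PLCG2 had 0.52 (SE 0.15), none past the test.

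Among other calcineurin substrates and NFAT partners, 10 were tested, of which ULK1 rose and MEF2D fell. ULK1, a kinase that starts autophagy, had 2565.4 and 2507.9 on the siPATZ1 arrays against 1399.8 and 1573.3 on the siCTRL arrays, a difference of 0.61 (SE 0.14, adjusted p = 0.0266 by limma), and its other probe had 0.32 (SE 0.12). MEF2D, a transcription factor that calcineurin activates, had 245.5 and 240.6 against 302.7 and 281.8, a difference of -0.56 (SE 0.12, adjusted p = 0.0257 by limma). Its relative MEF2A had 0.39 (SE 0.13) and did not pass. The calls of ULK1 and MEF2D were lost in 5 and 6 of 16 alternatives.

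Of 20 genes known as NFAT targets, mostly from T cells, 18 had a named probe and 14 of these were not detected on both arrays of either group, among them the cytokine genes IL2, IL4, IFNG and TNF. Of the 4 tested, CCND1, the cyclin D1 gene, fell, with 2673.5 and 2895.9 on the siPATZ1 arrays against 4019.2 and 4631.5 on the siCTRL arrays, a difference of -0.81 (SE 0.14, adjusted p = 0.0106 by limma), a call lost in 4 of 16 alternatives. MYC had 0.31 (SE 0.12) and -0.02 on its other probe, CXCL8 had -0.41 (SE 0.13) and VEGFA had 0 (SE 0.14), and these did not pass. The summed signal of the hepatocyte markers, set by KRT8, was also higher on the siPATZ1 arrays (6830 to 7100, against 5030 to 6260 on the siCTRL arrays), as was that of the mesenchymal markers, set by VIM (7690 to 7860 against 5600 to 6330). Leukocyte markers summed to 645 to 682 on the siPATZ1 arrays and 586 to 625 on the siCTRL arrays, all from undetected probes. Their part in the results above was not tested.

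**Figure D5:**
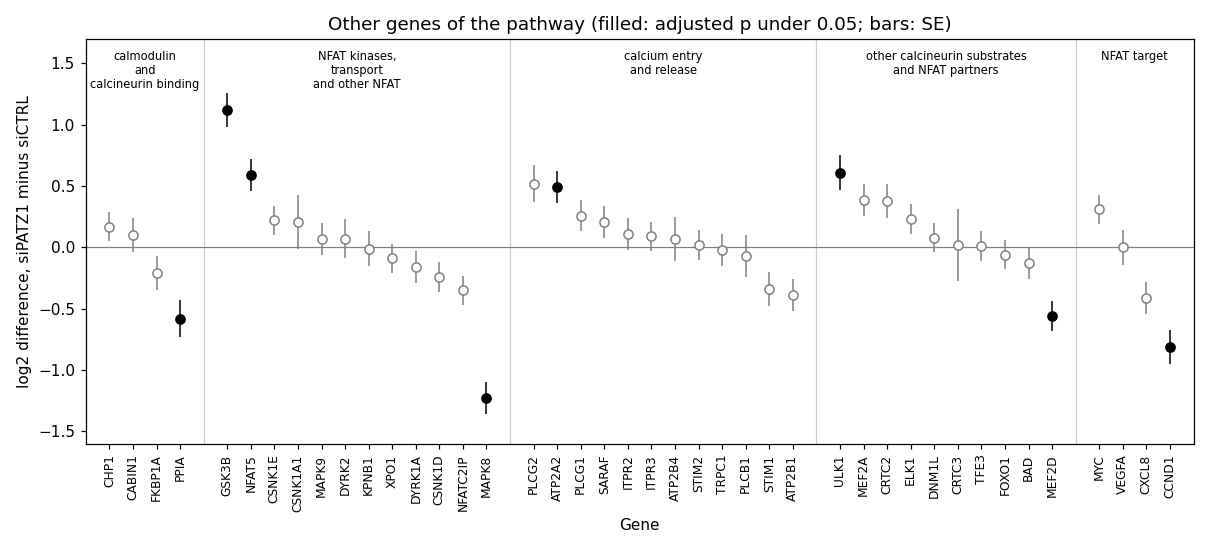
Log2 difference, siPATZ1 minus siCTRL, of the 42 further pathway genes tested, by list, with SE (filled points passed an adjusted p-value of 0.05). GSK3B (1.12) and MAPK8 (-1.23) lie farthest from 0, and 34 of the 42 did not pass.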

How the data were processed

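Total RNA of HepG2 cells was hybridized to 4 HumanHT-12 v4 BeadChips (Illumina), 2 per group by the labels. The authors deposited the intensity of 47323 probes on a linear scale without background subtraction, with a detection p-value for each, and a second intensity table scaled to a common array mean. The submitters' processing notes name GenomeStudio. The study's methods give log2 values, a 1.4-fold threshold and Student's test, while their background correction was not stated for the arrays.

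The unscaled intensities were corrected and quantile normalized with neqc in limma 3.58.1 (R 4.3.3), with negative controls inferred from the detection p-values and an offset of 16. The filter kept 15090 probes, those with detection p-values below 0.01 on both siPATZ1 or both siCTRL arrays. The platform annotation gave 30112 probes 1 gene, 8 several and 17203 none. Differences (siPATZ1 minus siCTRL) were fitted with lmFit and eBayes and adjusted by Benjamini-Hochberg, over all probes kept for the RCAN, calcineurin and NFAT genes and over 9435 genes, each by its brightest probe, for the further pathway genes. The fit had 2 residual degrees of freedom, with 5.32 (probes) and 5.73 (genes) from the prior, and the number of arrays limits the precision.

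The genes followed and the lists were chosen with earlier results of these data known. Every probe of the 10 genes was named, with up to 4 genes per list with the smallest p among those past the threshold, other genes being named after their values were seen. Where both arrays of a group lacked detection, the level was given as a bound from the lowest signal detected on each array of that group. The fit was tested on simulated data. Alternatives were no background correction, an offset of 50, median scaling, the deposited scaled signals, 4 other detection filters, the mean of the probes of a gene, the methods' t-test without and with Benjamini-Hochberg adjustment, the replicate number as a block, and leaving out each array. The t-test without adjustment counted as passed at an unadjusted p under 0.05. Counts of alternatives in which a call passed or was lost include it. Slide and scan batches were not given in the sources used here. Probe and protein sequences were not used here.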

Additional observations from a re-analysis of the deposited data

How the results depend on the processing

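The 8 further pathway genes that passed the test kept their sign under the other treatments of the signal and with each array left out. Those with several probes also kept it in the mean of their probes. The detection filters, the t-tests and the replicate block left the differences as they were, so the sign could not change there. Of the 9 RCAN, calcineurin and NFAT probes kept, 4 kept their sign and 5 took both signs over 8 alternatives. Of these 9, 1 was higher and 1 lower past the adjusted p-value, against 6.74% and 5.67% of all probes kept, counts given as a description. The lower count was 2, with RCAN1 added, with no background correction (890 of 9435 genes rose and 861 fell) and with an offset of 50 (850 and 801). It was also 2 among probes detected on all 4 arrays (606 and 685 of 8549 genes). By the methods' t-test without adjustment it was again 2 (925 and 945 of 9435 genes). With no detection filter it was 0 (190 and 147 of 20045 genes). The higher count was 0 among probes detected on all 4 arrays, where RCAN3 is left out by construction. By the methods' t-test after Benjamini-Hochberg adjustment both counts were 0, as were those of the further pathway genes, and over all genes 1 was higher and 0 lower. Leaving out 1 array leaves 1 in its group, and the calls did not all hold. RCAN3 then had differences of 1.59 to 1.66 and NFATC1 of -1.09 to -0.72.

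Of the further pathway genes, 4 rose and 4 fell. Median scaling gave 8 and 2, no detection filter 1 and 1, the methods' t-test without adjustment 7 higher, and leaving out 1 array 1 to 5 higher and 1 to 6 lower. Over all genes, 732 rose and 655 fell. Median scaling, which moved the median of all probes kept by 0.12, gave 1338 and 382, the deposited scaled signals 1130 higher, detection on at least 1 array 485 and 425, no detection filter 190 and 147, and leaving out 1 array 109 to 992 higher and 84 to 919 lower. Relative to its shift, median scaling left RCAN3 at 1.57, RCAN1 at -0.44, PPP3CB at 0.28 and NFATC1 at -0.89. The cause of these moves was not tested.

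The arrays share only a replicate number (correlation of their deviations -0.0284). With it as a block, 3 pathway genes rose and 3 fell, PPIA and ATP2A2 no longer passing, and over all genes 582 rose and 487 fell. At signals near background, as for RCAN3 in siCTRL cells, the size of a difference moved with the correction.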
